A study of Homo sapiens with 12 samples.

Results

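The zinc finger gene cluster on the long arm of human chromosome 19 was followed through gain and loss of MITF in melanoma cells. Its members were the 38 rows of a 26364-row count table whose symbol begins with ZNF and which lie, in the order of that table, between ZNF432 and LENG1. The members were chosen by their measured levels in these same 12 libraries, as a module, and the comparison that picked them is not recorded. Their levels and differences are therefore given as a description, and no p-value is printed for a member. Members called at an adjusted p under 0.05 in the fit across all genes are listed. Those calls are a description too, since the same values may have picked the members. Of the 38 members, 33 are annotated as protein coding, 4 as pseudogenes and 1, ZNF528-AS1, as a long noncoding RNA. A filter on low counts left 28 of the 38 in the fit across all genes, and the other 10 are given by their raw counts.

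The cells were A2058, an established human melanoma line, in 4 groups of 3 libraries. MITF-overexpressing cells carried an LVX lentiviral vector with MITF, MITF siRNA cells were transfected with siRNA to MITF for 48 hours, scrambled siRNA cells received a scrambled siRNA in the same way, and empty vector cells carried the LVX vector without MITF. Vector cells were transduced with virus and selected in puromycin, whereas siRNA cells were transfected with a lipid reagent, so a difference between a siRNA group and empty vector cells joins the vector, the selection and the transfection, which cannot be told apart. The labels call the replicates biological, and all of them come from 1 cell line, so the spread is that between cultures of A2058. Bulk RNA was sequenced, in which fewer cells of a type and less RNA per cell cannot be told apart.

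Zinc finger genes of this kind encode proteins with a row of C2H2 zinc fingers that bind DNA, most of them joined to a KRAB domain. The KRAB domain recruits the corepressor TRIM28, which brings in the histone methyltransferase SETDB1, HP1 proteins and histone deacetylases, and the complex places repressive chromatin over its targets, many of them transposable elements. The genes arose by tandem duplication, lie side by side in large clusters on chromosome 19, and are usually transcribed at low levels. MITF, the helix-loop-helix factor that sets the melanocyte lineage programme, binds E-box motifs in the promoters of pigment genes such as PMEL and MLANA.

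Some promoters of the cluster shared stretches of sequence, and whether duplication accounts for them was not tested. RefSeq promoters (build GRCh38.p14) were found for 28 of the 38 members, 23 of them among the tested ones, and the 250 bases before each annotated start were read. Words of 10 letters that recurred among these promoters were searched on both strands. The most frequent were GC-rich and common elsewhere too: AGGCCCCGCC stood in 17 of the 28 member promoters (60.7%), in 7.71% of 480 promoters of other ZNF genes and in 2.98% of all 27305 promoters. The pair described further was taken from the 30 words with the greatest excess over all promoters, by the number of member promoters that held them and, where that tied, by the excess. CCAGGGCTTT stood in 9 of the 28 member promoters (32.1%), in 2 of the 480 (0.417%) and in 45 of all 27305 promoters (0.165%). TGTCCTGCGC stood in 8 of the 28 (28.6%), in 0 of the 480 and in 28 of all 27305 (0.103%). One of those 8 was ZNF816-ZNF321P, a readthrough gene that shares its promoter with ZNF816. In the promoters with the first word, 209 to 240 bases lay between its last letter and the start, and 0 to 14 bases lay between the last letter of the second word and the start. The promoters of ZNF83, ZNF468, ZNF845 and ZNF813 held both words and are shown because they carry the shared layout, with the words in capitals:
ZNF83 promoter, chr19:52690497-52690746, minus strand: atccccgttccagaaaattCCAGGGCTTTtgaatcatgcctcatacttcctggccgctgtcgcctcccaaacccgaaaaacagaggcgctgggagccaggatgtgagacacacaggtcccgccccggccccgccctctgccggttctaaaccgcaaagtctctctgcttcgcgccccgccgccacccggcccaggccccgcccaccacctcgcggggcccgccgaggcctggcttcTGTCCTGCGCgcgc
ZNF468 promoter, chr19:52857620-52857869, minus strand: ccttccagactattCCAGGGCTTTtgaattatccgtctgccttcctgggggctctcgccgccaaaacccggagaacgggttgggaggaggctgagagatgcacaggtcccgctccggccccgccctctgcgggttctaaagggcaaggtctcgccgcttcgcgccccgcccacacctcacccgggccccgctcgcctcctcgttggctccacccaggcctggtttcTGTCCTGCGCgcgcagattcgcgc
ZNF845 promoter, chr19:53333499-53333748, plus strand: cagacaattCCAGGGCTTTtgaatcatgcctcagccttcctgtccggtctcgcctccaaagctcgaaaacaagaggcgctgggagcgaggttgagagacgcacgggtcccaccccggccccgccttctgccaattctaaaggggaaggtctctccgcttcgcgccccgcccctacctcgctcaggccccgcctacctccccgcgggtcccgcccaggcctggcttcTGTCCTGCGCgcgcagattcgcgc
ZNF813 promoter, chr19:53467483-53467732, plus strand: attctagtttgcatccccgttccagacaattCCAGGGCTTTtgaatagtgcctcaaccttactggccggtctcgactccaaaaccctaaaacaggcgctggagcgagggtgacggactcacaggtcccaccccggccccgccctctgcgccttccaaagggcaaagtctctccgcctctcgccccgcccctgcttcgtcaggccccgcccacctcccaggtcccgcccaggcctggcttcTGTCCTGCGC

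Members with and without these words overlapped in their expression differences. Between MITF-overexpressing and empty vector cells, the 9 tested members with CCAGGGCTTT had a median log2 fold change of -0.29 (range -0.79 to 0.15) and the 14 without it a median of -0.18 (range -1.43 to 0.03). Between MITF siRNA and scrambled siRNA cells the medians were 0.02 with the word and -0.09 without it. Between scrambled siRNA and empty vector cells they were -0.44 with the word (range -0.68 to -0.22) and -0.20 without it (range -0.71 to 0.06), the widest gap of the 3 comparisons. For TGTCCTGCGC the MITF overexpression medians were -0.32 over 7 tested members with it and -0.11 over 16 without it, and in scrambled siRNA against empty vector cells both medians were -0.32.

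The promoters were rich in G and C. Their median GC content was 65.0% (range 52.0% to 75.6%), against 60.8% for other ZNF promoters and 58.0% for all promoters, and they held a median of 19.5 CpG pairs, against 17 and 11. The E-box CACGTG, the palindromic motif that MITF binds, was in 0 of the 28 windows on either strand, against 4.38% of other ZNF promoters and 6.49% of all promoters. The related E-box CATGTG, searched on both strands and read as CACATG on the opposite one, was in 1 of 28 (3.57%), against 6.04% and 9.54%. That 1 promoter was ZNF880, the tested member with the lowest log2 fold change between MITF-overexpressing and empty vector cells. It is shown with the motif in capitals, next to the promoter of ZNF160, which held neither word of the pair nor either E-box and differed little between groups:
ZNF880 promoter, chr19:52369673-52369922, plus strand: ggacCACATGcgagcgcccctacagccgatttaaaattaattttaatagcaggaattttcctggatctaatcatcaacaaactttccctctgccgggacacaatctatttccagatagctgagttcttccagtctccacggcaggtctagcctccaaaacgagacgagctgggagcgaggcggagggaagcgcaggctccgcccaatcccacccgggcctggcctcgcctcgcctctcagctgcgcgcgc
ZNF160 promoter, chr19:53103423-53103672, minus strand: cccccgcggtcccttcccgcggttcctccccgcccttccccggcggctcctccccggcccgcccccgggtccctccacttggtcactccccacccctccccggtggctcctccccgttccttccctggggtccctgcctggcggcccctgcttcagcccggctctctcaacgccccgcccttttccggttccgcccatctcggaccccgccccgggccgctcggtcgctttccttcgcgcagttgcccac

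A missing motif says only that these letters are absent from the 250 bases read.

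Expression is given as CPM, counts divided by the library total and put on a common scale by the trimmed mean of M-values (TMM), which compares 1 gene between libraries but does not correct for gene length. MITF itself was at 657 ± 23.3 CPM in MITF-overexpressing, 343 ± 21.4 in MITF siRNA, 467 ± 36.8 in scrambled siRNA and 304 ± 6.75 in empty vector cells (mean ± SD, n = 3 each). In edgeR's quasi-likelihood test it was higher by 1.11 on the log2 scale with the vector (adjusted p = 4.06e-18) and lower by 0.44 with the siRNA (log2 fold change -0.44, adjusted p = 2.84e-08). MITF siRNA cells held slightly more MITF RNA than empty vector cells (0.18, adjusted p = 0.00545). Library totals ran between 7427637 and 23938392 counts, the empty vector libraries being among the shallowest at 7427637 to 14500191. Within groups the lowest correlation of log2 CPM between libraries was 0.991. The 8 melanoma markers, among them SOX10, PMEL, MLANA and DCT, summed to 7740 to 8400 CPM in MITF-overexpressing, 5610 to 6300 in MITF siRNA, 6990 to 7940 in scrambled siRNA and 3690 to 3900 in empty vector libraries. Markers of other cell types were low, with sums of at most 34.5 CPM for 6 fibroblast genes, mostly LUM, 3.97 CPM for 5 epithelial genes and 18.9 CPM for 5 leukocyte genes, mostly CD68. The leukocyte gene CD3E and the epithelial gene KRT5 had no count in any of the 12 libraries, and PTPRC stayed at or under 0.441 CPM. The nuclear RNA MALAT1 took 1.22% to 1.27% of counts in MITF-overexpressing libraries and 0.273% to 0.758% in the others, and its part in the differences below was not tested.

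Taken as 1 sum, the cluster was highest in empty vector cells. The 38 members together held 372.8, 371.9 and 370.7 CPM in the MITF-overexpressing libraries, 324.2, 304.2 and 322.5 CPM in the MITF siRNA libraries, 362.4, 332.0 and 323.4 CPM in the scrambled siRNA libraries, and 425.3, 449.9 and 436.9 CPM in the empty vector libraries. Every empty vector library stood above all 9 others, while the ranges of the siRNA groups met. As a share of the empty vector mean (437.4 ± 12.3 CPM, SD, n = 3), MITF-overexpressing cells held 85.0%, MITF siRNA cells 72.5% and scrambled siRNA cells 77.6%. The 229 other ZNF genes of chromosome 19 held 96.9%, 89.5% and 92.9% of their empty vector sum in the same 3 groups. The 299 ZNF genes on other chromosomes held 116%, 98.5% and 101%. These sums are led by the abundant members, and no test was made on them.

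**Figure D1:**
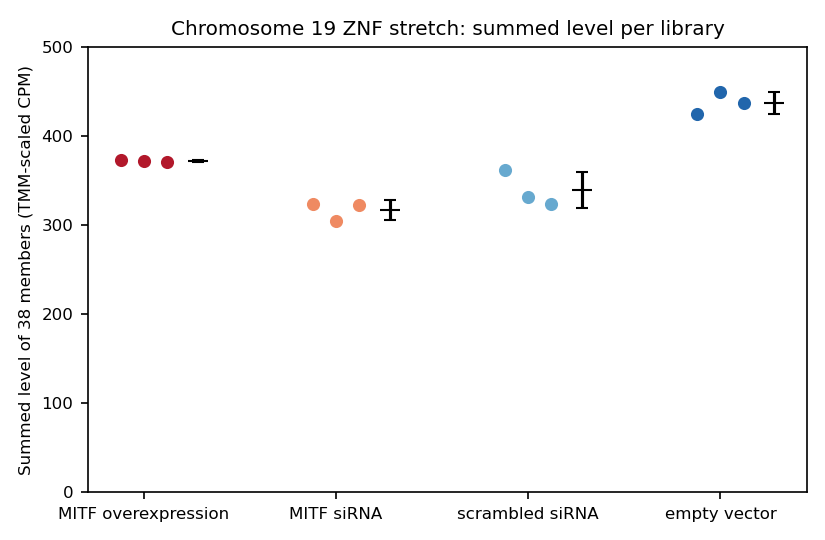
Summed level of the 38 cluster members in each of the 12 libraries, in TMM-scaled CPM, with the groups on the horizontal axis in the order MITF overexpression, MITF siRNA, scrambled siRNA and empty vector. Points are libraries and bars are group means with the SD; the 3 empty vector libraries sit between 425.3 and 449.9 CPM, above the other 9.

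Gene by gene, empty vector cells also held most of the highest means. Of the 28 tested members, 17 had their highest group mean in empty vector cells and 0 had their lowest there, whereas over all 14297 tested genes 26.3% were highest and 26.8% lowest in empty vector cells. The lowest mean was in MITF-overexpressing cells for 11 members, in MITF siRNA cells for 11 and in scrambled siRNA cells for 6, where the shares over all tested genes were 33.5%, 24.3% and 15.5%. In 9 members every library of the other 3 groups lay below every empty vector library: ZNF480, ZNF880, ZNF528, ZNF701, ZNF611, ZNF28, ZNF468, ZNF845 and ZNF765. Over all tested genes 10.3% met the same condition, and since the members were chosen on these values nothing is read from the count.

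**Figure D2:**
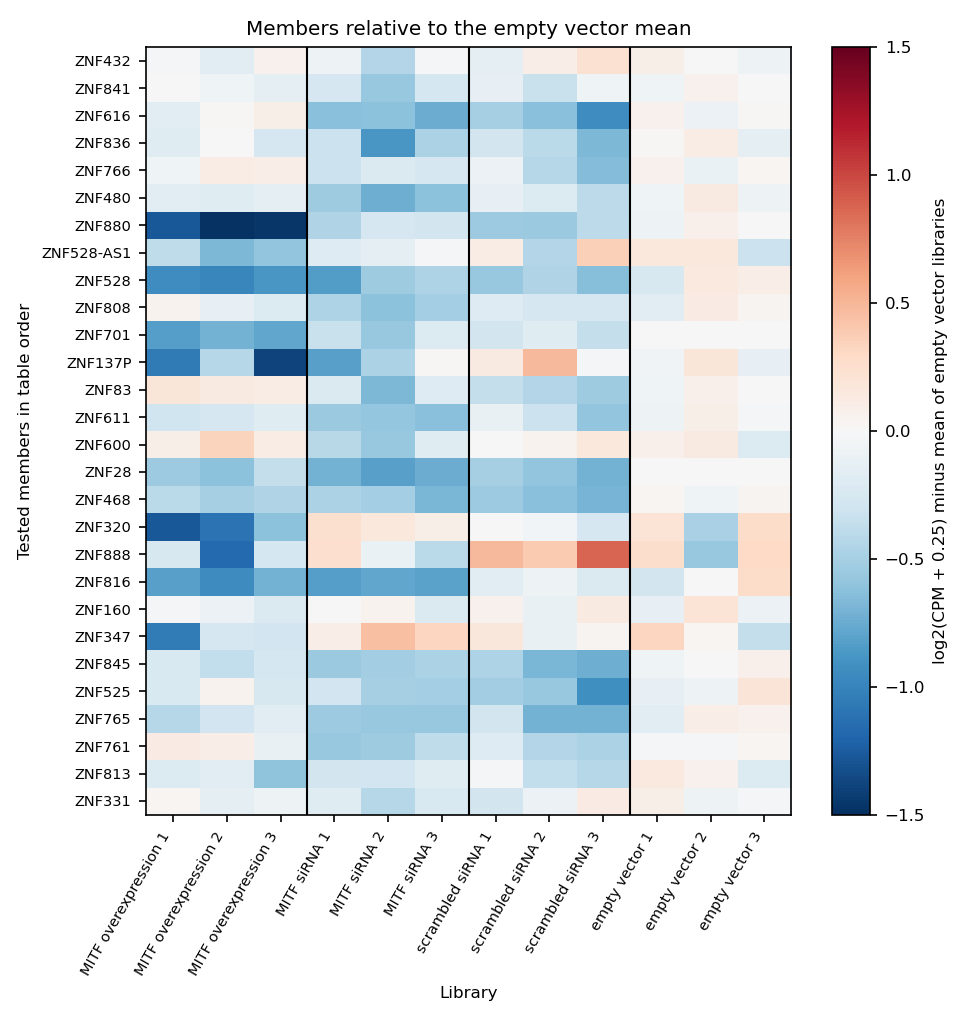
Heat map of the 28 tested members (rows, in table order) in 12 libraries (columns, in the order MITF overexpression, MITF siRNA, scrambled siRNA and empty vector). Colour is the log2 of CPM plus 0.25 minus the mean of that gene over the empty vector libraries, with colours ending at 1.5 either way; most cells outside the empty vector columns lie below that mean, and ZNF160 is among the rows close to it throughout.

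The first comparison, MITF-overexpressing against empty vector cells, asks what added MITF does to the cluster. At an adjusted p under 0.05 in edgeR's quasi-likelihood test across all genes, 13 of the 28 tested members were called lower (46.4%) and 0 were called higher. The background was large: 30.8% of all tested genes were called lower, 28.6% higher and 59.4% in either direction. The median log2 fold change of the members was -0.26, with 24 of 28 below 0, against a median of 0 and 49.6% below 0 over all tested genes. In 13 members all MITF-overexpressing libraries lay below all empty vector libraries and in 1 all lay above, against 33.2% and 32.0% of all tested genes. Because the members were picked with these values known, nothing is read from the shares.

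ZNF880 had the widest separation among the members. It was at 5.29, 4.56 and 4.62 CPM in MITF-overexpressing cells, 9.58, 11 and 10.8 in MITF siRNA cells, 8.95, 8.85 and 9.93 in scrambled siRNA cells and 12.5, 13.9 and 13.1 in empty vector cells. No library of the MITF-overexpressing group reached any library of another group, and its log2 fold change against empty vector cells was -1.43 (SE 0.12). Of the 76-base words (the read length) of its annotated transcripts, 0.0% occur in an annotated transcript of another gene.

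ZNF528 and ZNF701 shared that direction at smaller size. ZNF528 was at 5.06, 4.90 and 5.28 CPM in MITF-overexpressing cells, against 8.33, 11 and 10.6 in empty vector cells, a log2 fold change of -0.95 (SE 0.14). ZNF701 was at 6.2, 6.76 and 6.4 CPM in MITF-overexpressing cells, against 11.2, 11.1 and 11.2 in empty vector cells, a log2 fold change of -0.79 (SE 0.12). The groups did not overlap for either gene. Of the 76-base words of ZNF701, 16.6% occur in transcripts of other genes, as do 16.3% of those of ZNF808. Each of these 2 genes is the main partner of the other. ZNF528-AS1, the RNA on the opposite strand beside ZNF528, was low, at 0.958, 0.735 and 0.792 CPM in MITF-overexpressing cells and 1.51, 1.51 and 1.01 in empty vector cells (log2 fold change -0.69, SE 0.32, not called).

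ZNF816 was at 2.01, 1.81 and 2.18 CPM in MITF-overexpressing cells, against 3.03, 3.72 and 4.55 in empty vector cells, with a log2 fold change of -0.89 (SE 0.20). ZNF28, one of the most abundant members, was at 30.9, 29.5 and 35.2 CPM in MITF-overexpressing cells, against 45.4, 44.9 and 45.2 in empty vector cells, with a log2 fold change of -0.51 (SE 0.069). For both genes the groups did not overlap, and the empty vector libraries of ZNF28 lay within 0.5 CPM of one another. Low members had wide errors: ZNF347 was at 0.912, 1.76 and 1.72 CPM with MITF, against 2.75, 2.20 and 1.62 without it, and its groups overlapped (log2 fold change -0.65, SE 0.27). The pseudogene ZNF137P was at 0.730, 1.27 and 0.528 CPM, against 1.72, 2.06 and 1.62 in empty vector cells (log2 fold change -1.02, SE 0.33).

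ZNF468 and ZNF320 are overlapping genes and need to be read together. On the same strand, 78.5% of the exon bases of ZNF320 and 53.3% of those of ZNF468 belong to another annotated gene, each being the main partner of the other, and 72.9% and 53.2% of their 76-base words occur in transcripts of other genes. ZNF468 was at 18.9, 17.7 and 18.3 CPM in MITF-overexpressing cells, against 25.5, 23.9 and 25.7 in empty vector cells (log2 fold change -0.46, SE 0.082). ZNF320 was at 0.456, 0.539 and 0.858 CPM, against 1.72, 0.963 and 1.82 in empty vector cells (log2 fold change -1.39, SE 0.33). No source used here says how the counting program split reads between them, so the value of ZNF320 is uncertain. The 3 tested members at or below a log2 fold change of -1 were ZNF880, ZNF320 and ZNF137P.

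The remaining members called lower with MITF were ZNF611, ZNF845, ZNF765 and ZNF813, with log2 fold changes between -0.32 and -0.24. ZNF611 and ZNF765 encode KRAB zinc finger proteins reported to bind SVA and LINE-1 elements. At the other end of the scale, ZNF600 and ZNF83 had the highest log2 fold changes. ZNF83 was at 34.2, 33.0 and 32.4 CPM in MITF-overexpressing cells, against 28.6, 31.7 and 29.9 in empty vector cells, and was the 1 member whose MITF-overexpressing libraries all lay above (log2 fold change 0.15, SE 0.092, not called). ZNF600 was at 7.71, 9.21 and 7.85 CPM, against 7.64, 7.98 and 6.27, with overlapping groups (log2 fold change 0.18, SE 0.13).

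The differences were not spread evenly along the table. Divided after their values were seen, the 6 tested members from ZNF432 to ZNF480 had log2 fold changes of -0.15 to 0.03 between MITF-overexpressing and empty vector cells. The next 6, from ZNF880 to ZNF137P, ran from -1.43 to -0.07 with a median of -0.87, the exception near 0 being ZNF808, the KRAB zinc finger gene whose loss in humans causes failure of the pancreas to form. ZNF83, ZNF611 and ZNF600 followed at -0.24 to 0.18. The 5 members from ZNF28 to ZNF816 ran from -1.39 to -0.46. ZNF160 at -0.09 and ZNF347 at -0.65 came next, and the last 6, from ZNF845 to ZNF331, ran from -0.32 to 0.05. By strand, the 13 tested members on the plus strand had a median of -0.29 and the 15 on the minus strand a median of -0.24. Between scrambled siRNA and empty vector cells these medians were -0.37 on the plus strand and -0.17 on the minus strand. 

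**Figure D3:**
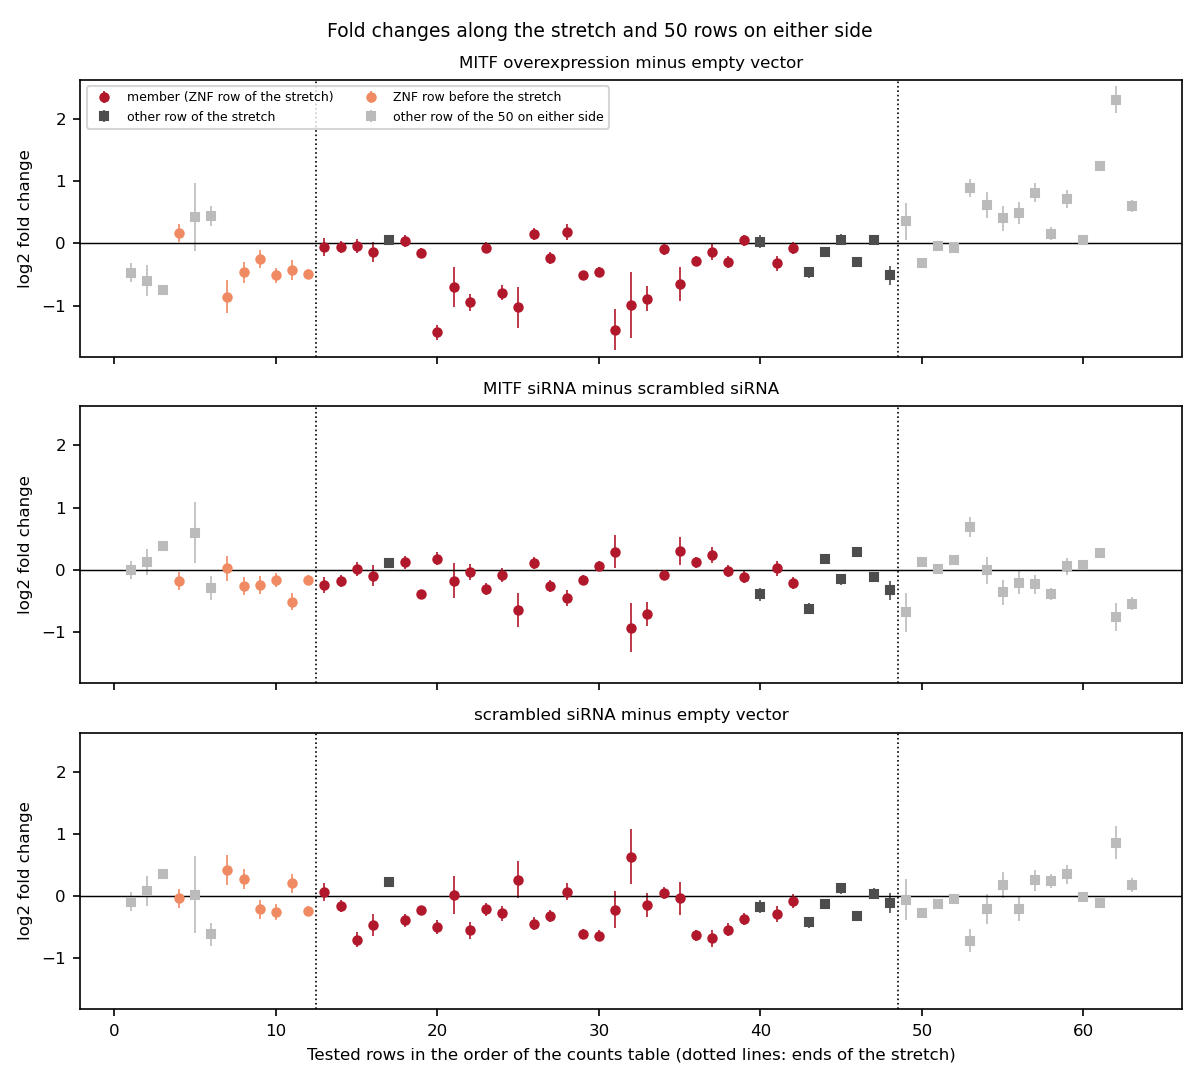
Log2 fold change of each tested gene in table order through the stretch and its flanks, in 1 panel for each of the 3 comparisons, each as the first group over the second: MITF overexpression over empty vector, MITF siRNA over scrambled, and scrambled siRNA over empty vector. Cluster members are marked apart from other rows; in the first comparison the members from ZNF880 to ZNF137P run from -1.43 to -0.07 while those from ZNF432 to ZNF480 stay between -0.15 and 0.03.

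At the edges, ZNF432 is the first member and ZNF614 the nearest ZNF row outside. ZNF432 had a log2 fold change of -0.06 (SE 0.14) between MITF-overexpressing and empty vector cells, and ZNF331, the last member and an imprinted gene, one of -0.07 (SE 0.10). ZNF614 was called lower (log2 fold change -0.49, SE 0.085, adjusted p = 5.77e-06 in edgeR's quasi-likelihood test). Of the 7 tested ZNF genes in the 50 rows before the cluster, 5 were lower and 0 higher in this comparison, with a median of -0.47. They included ZNF577 at -0.86 (adjusted p = 0.00579), ZNF350 at -0.51 (adjusted p = 5.19e-04), ZNF649 at -0.47 (adjusted p = 0.0146) and ZNF615 at -0.43 (adjusted p = 0.0166), while ZNF175 was at 0.16 (adjusted p = 0.334). These genes are separated from the low members by the flat run from ZNF432 to ZNF480. Over all genes of those 50 rows, 8 of 12 tested were lower and 1 higher, with the same median, and they included ETFB at -0.75 (adjusted p = 7.30e-14), VSIG10L at -0.60 (adjusted p = 0.0369) and CTU1 at -0.47 (adjusted p = 0.00928), which are no zinc finger genes. In the 50 rows after LENG1, 8 of 15 tested genes were higher and 1 lower, with a median of 0.49.

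Genes inside the stretch that are not zinc fingers moved in several directions. Of the 77 other rows, 53 are microRNA rows, of which 2 had any count, and 8 rows passed the filter. MYADM, a myeloid-associated differentiation marker, fell in MITF-overexpressing cells (log2 fold change -0.47, adjusted p = 3.40e-05), in MITF siRNA against scrambled siRNA cells (-0.63, adjusted p = 1.97e-06) and in scrambled siRNA against empty vector cells (-0.42, adjusted p = 4.06e-04). PRPF31, a splicing factor, fell with MITF overexpression (-0.30, adjusted p = 6.24e-06), rose with MITF siRNA (0.29, adjusted p = 2.93e-05) and was lower in scrambled siRNA than in empty vector cells (-0.33, adjusted p = 7.12e-06). PPP2R1A, a scaffold subunit of phosphatase 2A, had a value of 0.05 with MITF overexpression (adjusted p = 0.344) and CNOT3, of the deadenylase complex, one of 0.06 (adjusted p = 0.553). In all, 3 of these 8 rows were lower and 0 higher with MITF overexpression, with a median of -0.06.

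The second comparison, MITF siRNA against scrambled siRNA cells, asks what reduced MITF does, with transfection in both groups. In it 5 of 28 members were called lower (17.9%) and 0 higher, where 16.7% of all tested genes were called lower, 18.7% higher and 35.4% in either direction. The median log2 fold change was -0.09, and 18 of 28 members lay below 0. Libraries did not overlap in 8 members, 6 below and 2 above, against 21.4% and 23.0% of all tested genes, and nothing is read from these shares. Of the 8 melanoma markers, 7 were higher and 1 lower with MITF overexpression, and 1 was higher and 5 lower with MITF siRNA. Between the controls, scrambled siRNA against empty vector cells, 7 were likewise higher and 1 lower. Over all tested genes, 28.6%, 18.7% and 18.9% were called higher in these 3 comparisons and 30.8%, 16.7% and 19.6% lower. MLANA, a pigment gene, rose with MITF overexpression (3.08, adjusted p = 2.53e-28) and fell with MITF siRNA (-0.87, adjusted p = 1.12e-13). S100B fell with MITF overexpression (-0.52, adjusted p = 3.76e-06) and rose with MITF siRNA (0.57, adjusted p = 3.66e-06). Both genes also differed between scrambled siRNA and empty vector cells in edgeR's quasi-likelihood test. MLANA was at 0.83 there (adjusted p = 9.7e-13) and S100B at -0.33 (adjusted p = 7.81e-04).

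The 5 members called lower were ZNF480, ZNF808, ZNF611, ZNF600 and ZNF816. ZNF480, the most abundant member, was at 28.1, 24.5 and 26.6 CPM in MITF siRNA cells, against 37.6, 35.4 and 31.1 in scrambled siRNA cells, without overlap (log2 fold change -0.39, SE 0.072). ZNF600 was at 5.39, 4.83 and 6.38 CPM in MITF siRNA cells, against 7.27, 7.52 and 8.16 in scrambled siRNA cells, also without overlap (-0.46, SE 0.13). ZNF816 was at 1.98, 2.07 and 2.03 CPM, against 3.29, 3.51 and 3.16 (-0.71, SE 0.19), and its 3 siRNA libraries lay within 0.1 CPM. ZNF808 was at 12, 10.8 and 11.6 CPM, against 14.5, 14.0 and 14.0 (-0.31, SE 0.096). The call of ZNF611 (-0.27, SE 0.096) was lost when any of 3 libraries was left out, MITF siRNA replicate 3 or scrambled siRNA replicate 1 or 2, with values of -0.26 to -0.15.

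ZNF880 lay at 0.18 (SE 0.11) in this comparison and ZNF528 at -0.04 (SE 0.13), and neither of them was called. ZNF816, which was called here, had a log2 fold change of -0.89 with MITF overexpression. ZNF347 at 0.30 (SE 0.23) and ZNF525 at 0.23 (SE 0.13) had the highest log2 fold changes among members of at least 1 log2 CPM, and neither was called.

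The difference between both responses, that of MITF overexpression minus that of MITF siRNA, was called lower in 8 members and higher in 2, where 29.8% and 27.1% of all tested genes were called and 56.9% in either direction. It was -1.61 (SE 0.16) for ZNF880, -0.91 (SE 0.19) for ZNF528 and -0.71 (SE 0.16) for ZNF701, members that were low with the MITF vector and near 0 with the siRNA. The others called lower were ZNF28, ZNF468, ZNF320, ZNF347 and ZNF845. It was 0.64 (SE 0.19) for ZNF600 and 0.24 (SE 0.10) for ZNF480, which were called lower with the siRNA and stood at 0.18 and -0.15 with the vector. The call of ZNF480 was lost without any 1 of 8 of the 12 libraries. ZNF816 was called lower in both comparisons, and its difference was -0.18 (SE 0.28).

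**Figure D4:**
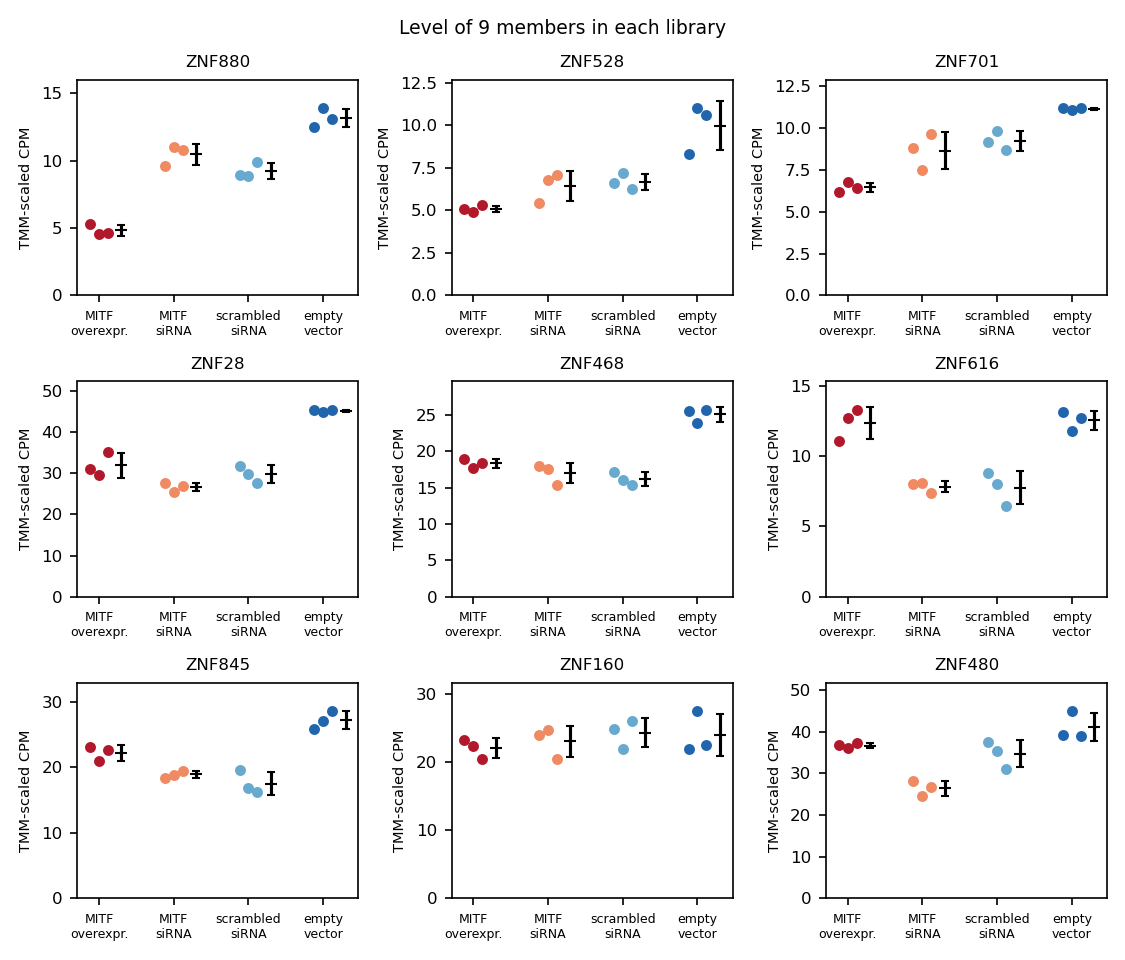
CPM in each library for 9 members, in 1 panel each with its own axis from 0, with groups in the order MITF overexpression, MITF siRNA, scrambled siRNA and empty vector. Points are libraries and the black bars are group means with the SD; ZNF880 is lowest with MITF overexpression, at 4.56 to 5.29 CPM, ZNF480 lowest with MITF siRNA, at 24.5 to 28.1 CPM, and ZNF160 overlaps in all groups.

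The third comparison sets the controls against each other, scrambled siRNA against empty vector cells. In it 14 of 28 members were called lower (50.0%) and 0 higher, where 19.6% of all tested genes were called lower, 18.9% higher and 38.5% in either direction. The median log2 fold change was -0.28 with 22 of 28 below 0. In 15 members all scrambled siRNA libraries lay below all empty vector libraries and in 1 all lay above, against 24.3% and 23.7% of all tested genes. This comparison shares its empty vector libraries with that of MITF overexpression, so the values of these comparisons are not independent.

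ZNF616 had the lowest log2 fold change here (-0.71, SE 0.12), at 8.80, 8.01 and 6.47 CPM in scrambled siRNA cells, against 13.1, 11.8 and 12.7 in empty vector cells. In MITF-overexpressing cells it was at 11.1, 12.7 and 13.3 CPM, overlapping the empty vector libraries (-0.04, SE 0.11). ZNF525 was at 7.80, 7.52 and 5.88 CPM in scrambled siRNA cells, against 10.4, 10.7 and 13.0 in empty vector cells (-0.68, SE 0.14). The groups did not overlap for either gene.

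ZNF468 was at 17.1, 16.1 and 15.3 CPM in scrambled siRNA cells (-0.64, SE 0.087), ZNF845 at 19.6, 16.8 and 16.2 (-0.63, SE 0.086) and ZNF28 at 31.8, 29.9 and 27.6 (-0.60, SE 0.072). In ZNF845 the empty vector libraries were at 25.9, 27.1 and 28.6 CPM and the MITF-overexpressing ones at 23.1, 20.9 and 22.6. ZNF83, highest in MITF-overexpressing cells, was at 23.3, 22.1 and 20.6 CPM in scrambled siRNA cells (-0.44, SE 0.10). ZNF160, reported to repress TLR4 in gut epithelium, was at 24.9, 22.0 and 26.1 CPM, against 21.9, 27.5 and 22.5 in empty vector cells (0.04, SE 0.094), and its libraries overlapped in every comparison with empty vector cells.

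Set side by side, the comparisons with empty vector cells divided the members. Called lower both with MITF overexpression and with scrambled siRNA were 7 members: ZNF880, ZNF528, ZNF611, ZNF28, ZNF468, ZNF845 and ZNF765, where 14.2% of all tested genes were. Called lower with MITF overexpression but not with scrambled siRNA were 6, namely ZNF701, ZNF137P, ZNF320, ZNF816, ZNF347 and ZNF813, against 16.6% of all tested genes. Called lower with scrambled siRNA but not with MITF overexpression were 7, namely ZNF616, ZNF836, ZNF766, ZNF480, ZNF83, ZNF525 and ZNF761, against 5.36%. ZNF611 was the 1 member called lower in all 3 comparisons, as were 1.27% of all tested genes, and 6, against 24.8%, were called in none: ZNF432, ZNF841, ZNF528-AS1, ZNF888, ZNF160 and ZNF331. A call in one comparison and not in the other does not show that they differ. Some of these calls rested on 1 library: with MITF overexpression that of ZNF765 was lost without MITF overexpression replicate 1 or empty vector replicate 2 or 3 (log2 fold change -0.26 to -0.22) and that of ZNF347 without MITF overexpression replicate 1 or empty vector replicate 1 or 2 (-0.66 to -0.37), and in scrambled siRNA against empty vector cells that of ZNF480 was lost without scrambled siRNA replicate 3 or empty vector replicate 2 (-0.17 to -0.16).

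MITF siRNA against empty vector cells, which differ both in siRNA and in vector, gave 20 of 28 members called lower and 0 higher, where 20.8% of all tested genes were called lower, 21.8% higher and 42.7% in either direction. The median log2 fold change was -0.39 with 26 of 28 below 0, and 19 members did not overlap, all of them below, against 24.1% of all tested genes. ZNF816 was lowest at -0.86 (SE 0.20), then ZNF28 at -0.77 (SE 0.070), ZNF616 at -0.69 (SE 0.11) and ZNF480 at -0.62 (SE 0.074). ZNF347 at 0.26 (SE 0.24) and ZNF320 at 0.07 (SE 0.27) were the 2 members above 0.

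The empty vector group, the highest for most members, included the 2 shallowest libraries. With all libraries thinned to 7427637 counts, a check added after seeing the data, 12 members were called lower with MITF overexpression, 3 with MITF siRNA, 13 in scrambled siRNA against empty vector cells and 13 in MITF siRNA against empty vector cells. The share of all tested genes called at that depth was not computed, so nothing is read from these counts. At that equal depth the median log2 fold changes of the members were -0.27 with MITF overexpression, -0.33 in scrambled siRNA against empty vector cells and -0.43 in MITF siRNA against empty vector cells, against -0.26, -0.28 and -0.39 without thinning. With total counts in place of TMM scaling 10 members were called lower with MITF overexpression, again without a share over all tested genes. Among the 23 tested members that share under 10% of their 76-base words with other genes, also a check added later, 10 were called lower with MITF overexpression and 12 in scrambled siRNA against empty vector cells. Of all tested genes, 30.8% and 19.6% were called lower in these 2 comparisons.

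Other zinc finger genes served as a yardstick. On the rest of chromosome 19, 41 of 175 tested ZNF genes were lower and 26 higher with MITF overexpression (median -0.04), 25 were lower and 9 higher with MITF siRNA (median -0.12), and 33 were lower and 7 higher in scrambled siRNA against empty vector cells (median -0.09). On other chromosomes, 31 of 239 were lower and 72 higher with MITF overexpression (median 0.06), 38 lower and 20 higher with MITF siRNA (median -0.06), and 36 lower and 30 higher in scrambled siRNA against empty vector cells (median -0.04). No test set the cluster against these genes, because it was chosen for its values.

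Levels were compared between genes only after division by the merged exon length of the GENCODE release 29 annotation. On this scale of mean CPM per kilobase over the 12 libraries, ZNF480 was highest at 7.18, followed by ZNF28 at 5.57, ZNF841 at 4.20, ZNF761 at 3.86 and ZNF83 at 3.39. ZNF320 at 0.154 and ZNF888 at 0.129 were lowest of the tested members, and 21 of the 28 reached 1 CPM per kilobase. The merged exons include every annotated transcript, so a gene with long unused exons appears lower.

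**Figure D5:**
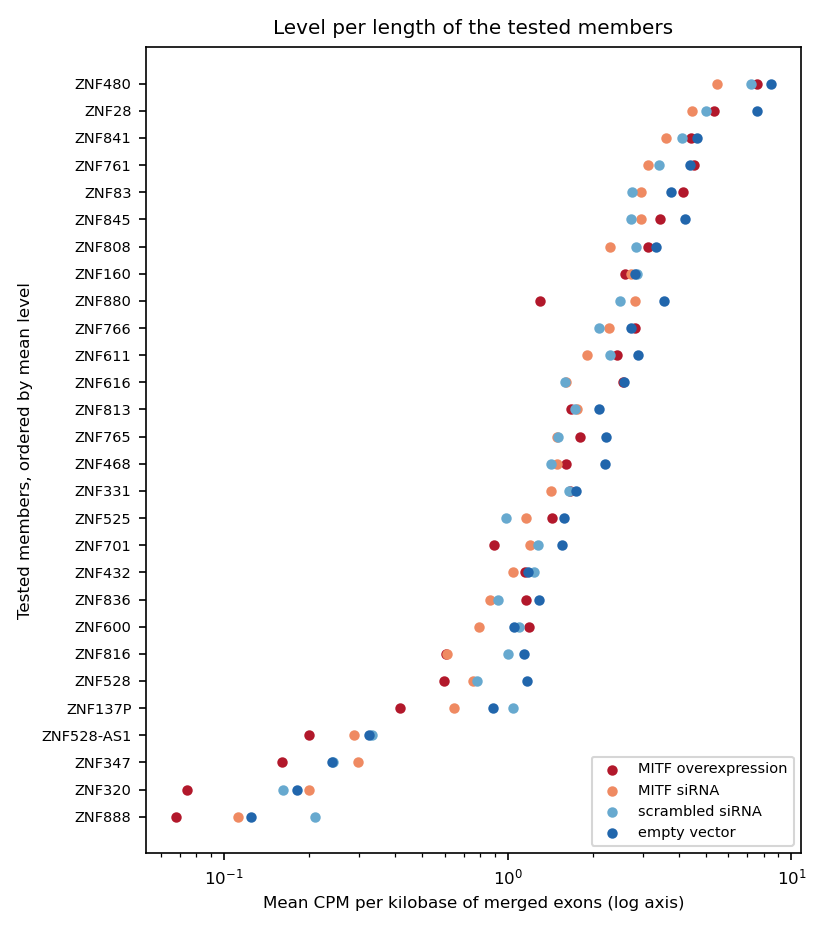
Mean CPM per kilobase of merged exons for the tested members in each group, on a log axis, with members ordered by level and groups in the order MITF overexpression, MITF siRNA, scrambled siRNA and empty vector. ZNF480 leads with a mean of 7.18 over all libraries and ZNF888 is last with 0.129.

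The other 10 members were too low to test, with 0 to 66 counts in all 12 libraries together. ZNF610 had 66 counts, ZNF578 57, ZNF415 25, ZNF702P 14, ZNF665 5, ZNF534 4, ZNF321P 2 and ZNF818P 1, while ZNF677 and ZNF816-ZNF321P had 0. A count of 0 allows up to 3 counts, or 0.125 to 0.404 CPM depending on the library, as counting error alone. ZNF415 had 4, 6 and 6 counts in MITF-overexpressing cells, 1, 1 and 1 in MITF siRNA cells, 0, 1 and 1 in scrambled siRNA cells, and 1, 1 and 2 in empty vector cells. All 14 counts of the pseudogene ZNF702P were in the other groups, with 0 in each MITF-overexpressing library. The readthrough row ZNF816-ZNF321P shares 94.1% of its 76-base words with other genes, so its 0 says little about its RNA.

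The proteins through which KRAB zinc fingers act were followed in 5 lists of 46 genes, all tested. Together 17 were higher and 9 lower with MITF overexpression (median -0.01), and 9 higher and 10 lower with MITF siRNA (median 0.02). In scrambled siRNA against empty vector cells 11 were higher and 7 lower (median 0.00). Called in either direction were 56.5%, 41.3% and 39.1% of these genes, against 59.4%, 35.4% and 38.5% of all tested genes. TRIM28, the corepressor that KRAB domains bind, fell with MITF overexpression (log2 fold change -0.25, SE 0.044, adjusted p = 8.75e-06 in edgeR's quasi-likelihood test) and was at 0.05 with MITF siRNA (adjusted p = 0.375). SETDB1, the histone H3 lysine 9 methyltransferase of the complex, rose with MITF overexpression (0.27, adjusted p = 1.13e-04) and was higher in scrambled siRNA than in empty vector cells (0.17, adjusted p = 0.0191). In the 12-gene corepressor complex list, 5 genes were higher and 2 lower with MITF overexpression, the largest value being that of MORC3, a chromatin ATPase, at 0.48 (adjusted p = 1.33e-09). CBX1, which encodes HP1 beta, fell with MITF siRNA (-0.46, adjusted p = 2.56e-10), and SMARCAD1, a remodeller that binds TRIM28, rose (0.27, adjusted p = 1.47e-05).

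The other lists were mixed. Of the 4 genes of the HUSH silencing complex and its partners, 1 was higher and 1 lower with MITF overexpression, and FAM208A, which encodes TASOR, rose with MITF siRNA (0.29, adjusted p = 3.26e-06). Of 12 genes acting in histone H3 lysine 9 and H4 lysine 20 methylation, 4 were higher and 1 lower with MITF overexpression. With MITF siRNA, 1 was higher and 2 lower. SETDB2 rose with the vector (0.54, adjusted p = 4.95e-06 in edgeR's quasi-likelihood test) and fell with the siRNA (-0.52, adjusted p = 1.12e-05). It was also higher in scrambled siRNA than in empty vector cells (0.57, adjusted p = 7.6e-06). In MITF siRNA against empty vector cells it was at 0.05 (adjusted p = 0.652). Among 7 genes of DNA methylation, 4 were higher and 2 lower with MITF overexpression and 4 lower with MITF siRNA. They included TET1, a methylcytosine dioxygenase, at 1.16 with MITF overexpression (adjusted p = 3.03e-16), -0.40 with MITF siRNA (adjusted p = 2.43e-06) and 1.19 in scrambled siRNA against empty vector cells (adjusted p = 2.02e-15). UHRF1, which guides maintenance methylation, fell in all 3 comparisons, with log2 fold changes of -0.42, -0.30 and -0.27 (adjusted p = 5.06e-08, 4.53e-05 and 2.15e-04). Of 11 SUMO pathway genes, 3 were higher and 3 lower with MITF overexpression, and 4 were higher and 2 lower with MITF siRNA, with SUMO2 at 0.41 (adjusted p = 1.28e-07).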

How the data were processed

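Total RNA of 12 A2058 libraries was prepared with a stranded kit and read as paired 76-base reads, per the labels' protocols. Per the submitters' processing notes the authors name STAR 2.6.0, featureCounts 1.6.3, SAMtools 1.10, bcl2fastq 2.18.0 and build hg19, with no roles given, and deposited raw counts per gene in 1 table. No source used here gives the settings for strand or for reads that map to several places. Counts were analysed in R 4.3.3 with edgeR 4.0.16. Genes were kept by filterByExpr with a minimum count of 10, libraries were scaled by TMM, and 1 robust quasi-likelihood fit of the 4 group means over 12 libraries gave every contrast, with Benjamini-Hochberg adjustment over all 14297 tested genes at 0.05.

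The members and gene lists were chosen with earlier results of these data known. Members are named by level (the 6 highest by mean CPM) and by the 6 highest and 6 lowest fold changes per contrast among the 24 members of at least 1 log2 CPM; other members are named where they complete a count or where their sequence or low count is described, and these were chosen after their values were seen. Promoters come from RefSeq (GRCh38.p14), exon lengths and 76-base words from GENCODE release 29 (GRCh38). Intervals and floors cover counting error only. Alternatives were DESeq2 1.42.0, limma 3.58.1 (voom), other scalings and filters, fits of fewer libraries and thinned libraries.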

Additional observations from a re-analysis of the deposited data

How the results depend on the processing

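No median of the members and no named member changed direction past its threshold under any alternative run. Counts of calls were not compared by direction. ZNF83 was called higher with MITF overexpression in the fit of only the 6 libraries compared and without MITF siRNA replicate 2 (0.16 in both). With MITF siRNA, ZNF83 was called higher without MITF siRNA replicate 2 (0.25) and ZNF766 without scrambled siRNA replicate 1 (0.28). The main fit called neither of them in those comparisons. Shares over all tested genes were not computed for these runs, so nothing is read from their counts of calls. With members of a mean count of at least 50 (22 members), the median log2 fold change was -0.14 with MITF overexpression, -0.38 in scrambled siRNA against empty vector cells, -0.47 in MITF siRNA against empty vector cells and -0.04 for the difference of responses. With no filter the last pair of medians was -0.46 and -0.29, and with total count scaling the difference of responses was at -0.04. With thinned libraries, chosen after seeing the data, 3 members were called with MITF siRNA, 13 in MITF siRNA against empty vector cells, 4 of 12 genes in the 50 rows before with MITF overexpression and 20 other chromosome 19 ZNF genes with MITF siRNA, and the median of the difference of responses was -0.25. The DESeq2 Wald test called 16 other chromosome 19 ZNF genes with MITF siRNA, against 34. Other rows of the stretch called with MITF siRNA numbered 3, against 5, with no filter, with 6 libraries, with total count scaling and with thinned libraries.

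Leaving out 1 library at a time gave 9 to 14 members called with MITF overexpression (median -0.27 to -0.22), 4 to 7 with MITF siRNA (-0.15 to -0.06), 11 to 15 in scrambled siRNA against empty vector cells (-0.35 to -0.22), 8 to 12 for the difference of responses (-0.21 to -0.08) and 17 to 20 in MITF siRNA against empty vector cells (-0.48 to -0.34). Other rows of the stretch called with MITF siRNA ran from 3 to 5. Other ZNF genes of chromosome 19 ran from 21 (without MITF siRNA replicate 2) to 35 with MITF siRNA and from 23 (without empty vector replicate 3) to 42 in scrambled siRNA against empty vector cells. Of the members named, 28 calls were lost and 8 gained by leaving out a library, and 16 were lost and 6 gained under other settings. Lost calls were those of ZNF765 and ZNF347 with MITF overexpression, ZNF611 and ZNF808 with MITF siRNA, ZNF480 in scrambled siRNA against empty vector cells (without scrambled siRNA replicate 3 or empty vector replicate 2), ZNF480, ZNF347 and ZNF28 in the difference of responses, and ZNF766 and ZNF331 in MITF siRNA against empty vector cells. In the difference of responses ZNF347 was lost without MITF overexpression replicate 1, scrambled siRNA replicate 2 or empty vector replicate 1 (-0.87 to -0.67). In MITF siRNA against empty vector cells ZNF766 was lost without MITF siRNA replicate 1 or 3 or empty vector replicate 1 or 3 (-0.28 to -0.24), and ZNF331 without MITF siRNA replicate 2 or empty vector replicate 1 (-0.24 to -0.22). The cause was not tested.

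Replicate numbers did not pair the libraries: over 18 pairs of groups and numbers, deviations of same-numbered libraries correlated at -0.121 to 0.0643. With the replicate number as a block, 13, 5, 14, 10 and 20 members were called in MITF overexpression, MITF siRNA, scrambled siRNA against empty vector, the difference of responses and MITF siRNA against empty vector, the same counts as without it, and 3 other rows of the stretch with MITF siRNA.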
